A study of Mus musculus with 16 samples.

Results

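The 36 genes described here encode the enzymes and transporters of glycolysis and a set of transcripts known to rise in low oxygen, such as Vegfa, Pdk1 and Bnip3. They were taken by name from a list drawn up with earlier results of these data known, and are 36 of the 21887 protein-coding genes placed on chromosomes in the mouse annotation used. By role they comprise 15 enzymes of the path from glucose to pyruvate, 5 lactate dehydrogenase subunits and transporters of glucose and lactate, and 16 further hypoxia-response genes. Chromatin was profiled by ChIP-seq in immortalized mouse embryonic fibroblasts, in which doxycycline (1 µg/mL, day 16) activates a Cre recombinase. The experimental line was R26M2rtTA/+;TetOcre;Sdhcfl/fl, with both copies of Sdhc floxed, and the control line was R26M2rtTA/+;TetOcre;Sdhcfl/wt, with 1 floxed and 1 wild-type copy. Both lines therefore carried the rtTA activator at Rosa26, the Tet-driven Cre and at least 1 floxed Sdhc allele, and both received doxycycline. Each line is a cell line, so that its 2 samples per antibody measure the spread within that line at most, and the sources used here do not say whether these came from separate cultures. Libraries were made from input chromatin and with antibodies to succinyllysine, H3K4me3 and H3K27me3, 16 samples in all.

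For each antibody 1 list of regions covers its 4 ChIP samples from both lines, with positions and no signal. The fl/fl and fl/wt cells therefore cannot be compared, no value has a replicate error, and no test was made. The read depth of the samples is unknown. A gene missing from a list is a gene without a listed region, not a gene shown to lack the modification. The lists held 10888 succinyllysine, 26654 H3K4me3 and 98342 H3K27me3 regions, all on a grid of 100 bp of mm10. Of 13 fibroblast markers, 11 had H3K4me3 at a gene end and Postn had it inside the gene, while none was listed at Thy1, a surface marker of many fibroblasts. H3K4me3 stood at the ends of 1 of 5 endothelial, 2 of 5 haematopoietic and 3 of 5 epithelial markers. It stood at 1 of 5 neuronal and 0 of 5 hepatocyte markers, beside 55.6% of all protein-coding genes. H3K27me3 stood at no fibroblast or endothelial marker, and at 1 haematopoietic, 3 epithelial, 4 neuronal and 2 hepatocyte markers. Over all genes its share was 13.6%. The epithelial markers Epcam and Esrp1 had both marks. Sdhc itself had a 900 bp succinyllysine region and a 4000 bp H3K4me3 region at its ends, which says nothing of its deletion.

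Glycolysis splits glucose into pyruvate, which lactate dehydrogenase turns to lactate when mitochondria do not take it up. Many of its genes, and those for glucose uptake, angiogenesis and mitophagy, are targets of the hypoxia-inducible factors (HIF), which bind a short core sequence, ACGTG or GCGTG, in promoters and enhancers. HIF-α subunits are marked for destruction by prolyl hydroxylases that use 2-oxoglutarate and release succinate, and succinate is known to inhibit these enzymes. Succinate dehydrogenase, of which Sdhc encodes a membrane anchor, removes succinate in the tricarboxylic acid cycle. H3K4me3 marks the starts of genes that are active or poised, H3K27me3 is laid down by Polycomb complexes at repressed genes, and succinyllysine is a lysine carrying a succinyl group.

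The promoters of 7 genes are printed because they show the different chromatin states met in the set. Each sequence runs 5′ to 3′ on the gene's strand, from 250 bases before an annotated start to 50 after the start, and comes from RefSeq (build GRCm38.p6, whose coordinates are those of mm10). Capitals mark the 2 forms of the HIF core, ACGTG and GCGTG, on either strand (CACGT and CACGC when read on the other). Eno2, Aldoa and Ankrd37 carried succinyllysine at an end, Vegfa carried it inside the gene, Pkm had the widest H3K4me3 region of the set, Hk1 had H3K4me3 at the second of its 2 starts alone, and Selenbp1 had no listed region.
Eno2 (chr6:124769624-124769923, minus strand): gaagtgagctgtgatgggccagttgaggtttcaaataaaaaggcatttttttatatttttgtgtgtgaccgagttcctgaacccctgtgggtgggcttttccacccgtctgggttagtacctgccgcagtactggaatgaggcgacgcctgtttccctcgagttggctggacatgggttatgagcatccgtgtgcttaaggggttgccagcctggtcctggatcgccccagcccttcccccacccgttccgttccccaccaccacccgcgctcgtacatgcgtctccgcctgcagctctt
Aldoa first start (chr7:126800398-126800697, minus strand): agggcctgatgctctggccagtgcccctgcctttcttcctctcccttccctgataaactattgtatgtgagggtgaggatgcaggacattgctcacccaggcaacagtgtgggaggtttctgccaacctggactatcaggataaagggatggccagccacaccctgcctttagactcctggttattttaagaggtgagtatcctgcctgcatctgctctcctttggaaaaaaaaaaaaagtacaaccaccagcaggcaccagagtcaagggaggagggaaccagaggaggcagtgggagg
Ankrd37 (chr8:45999801-46000100, minus strand): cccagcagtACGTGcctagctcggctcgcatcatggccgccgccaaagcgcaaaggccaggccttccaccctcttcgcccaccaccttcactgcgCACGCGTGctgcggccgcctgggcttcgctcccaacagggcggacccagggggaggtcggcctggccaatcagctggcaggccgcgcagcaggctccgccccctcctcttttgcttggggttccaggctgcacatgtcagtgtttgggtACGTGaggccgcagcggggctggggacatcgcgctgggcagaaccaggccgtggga
Vegfa first start (chr17:46032328-46032627, minus strand): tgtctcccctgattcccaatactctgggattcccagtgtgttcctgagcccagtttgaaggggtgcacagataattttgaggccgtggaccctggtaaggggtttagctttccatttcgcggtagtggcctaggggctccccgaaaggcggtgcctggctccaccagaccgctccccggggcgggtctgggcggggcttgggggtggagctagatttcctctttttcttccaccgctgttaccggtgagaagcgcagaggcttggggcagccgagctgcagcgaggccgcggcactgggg
Pkm first start (chr9:59656326-59656625, plus strand): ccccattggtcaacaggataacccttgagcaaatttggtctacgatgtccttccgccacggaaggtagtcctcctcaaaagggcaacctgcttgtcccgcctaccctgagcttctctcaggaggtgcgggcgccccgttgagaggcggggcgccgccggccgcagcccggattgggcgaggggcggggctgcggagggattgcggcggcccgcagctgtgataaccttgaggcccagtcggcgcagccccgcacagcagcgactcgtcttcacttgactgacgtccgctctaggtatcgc
Hk1 first start (chr10:62379859-62380158, minus strand): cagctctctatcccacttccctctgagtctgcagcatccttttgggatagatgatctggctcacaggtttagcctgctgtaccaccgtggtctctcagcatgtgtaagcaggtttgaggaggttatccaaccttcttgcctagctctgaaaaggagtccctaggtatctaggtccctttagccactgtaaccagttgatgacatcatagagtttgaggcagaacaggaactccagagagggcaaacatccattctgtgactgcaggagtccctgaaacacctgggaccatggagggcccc
Hk1 second start (chr10:62340372-62340671, minus strand): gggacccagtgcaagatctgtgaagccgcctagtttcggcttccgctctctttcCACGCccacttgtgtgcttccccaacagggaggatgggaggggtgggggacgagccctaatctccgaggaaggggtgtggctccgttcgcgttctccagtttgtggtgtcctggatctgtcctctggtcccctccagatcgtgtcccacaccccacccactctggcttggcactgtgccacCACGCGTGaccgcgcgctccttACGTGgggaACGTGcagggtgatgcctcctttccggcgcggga
Selenbp1 (chr3:94932833-94933132, plus strand): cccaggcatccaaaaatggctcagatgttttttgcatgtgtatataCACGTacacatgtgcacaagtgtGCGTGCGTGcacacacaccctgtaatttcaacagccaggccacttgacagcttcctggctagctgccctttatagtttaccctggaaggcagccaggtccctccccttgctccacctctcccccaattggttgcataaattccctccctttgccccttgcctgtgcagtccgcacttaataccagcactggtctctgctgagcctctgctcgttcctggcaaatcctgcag

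All 300 bases of the printed Eno2 and Aldoa promoters lay in both a succinyllysine and an H3K4me3 region, and neither holds a core. The Ankrd37 promoter holds 4 cores. All of it lay in H3K4me3 and its 100 bases farthest upstream of the start lay in succinyllysine. The Vegfa and Pkm promoters, without a core in these windows, and the second Hk1 promoter, with 5 cores, lay wholly in H3K4me3. The first Hk1 promoter (0 cores) and the Selenbp1 promoter (3 cores) were covered by none of the lists.

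H3K4me3 covered nearly the whole set, H3K27me3 none of it and succinyllysine a few genes. A gene was counted as marked when a region lay within 1000 bp of either of its outer ends. H3K4me3 was listed at 32 of 36 genes, beside 55.6% of all protein-coding genes. H3K27me3 was listed at 0 of 36, beside 13.6% of all genes. At the single position of the first start, H3K27me3 covered 0 of 33 members. It covered 4.43% of all genes there but 1.04% of those with H3K4me3 within 1000 bp. Its absence at that position is therefore also common among genes with H3K4me3 outside this set. The share over the wider windows at gene ends was not counted for genes with H3K4me3. Succinyllysine was listed at 3 of 36, Eno2, Aldoa and Ankrd37, beside 5.42% of all genes, and at this set size 3 genes are a share near that background. These counts over lists of regions are descriptions, and the windows of neighbouring genes can share a region.

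**Figure D1:**
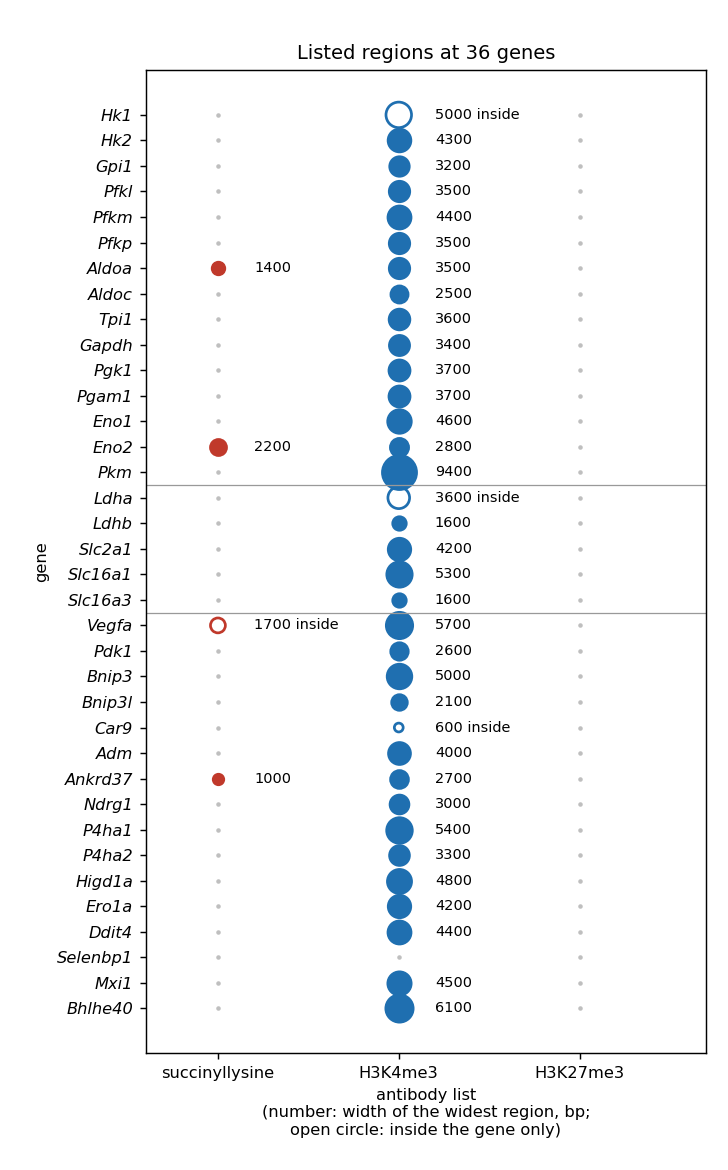
Regions listed for each of the 36 genes (rows, grouped as enzymes, lactate dehydrogenase and transporters, and hypoxia-response genes) in the 3 antibody lists (columns). Filled circles stand for a region within 1000 bp of a gene end, open circles for a region inside the gene only, and small grey points for none; circle area and the number give the width of the widest region in bp. H3K4me3 is listed at 32 genes at an end and at 3 inside, succinyllysine at 3 and 1, and H3K27me3 at none.

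Regions inside genes added to these counts. H3K4me3 lay inside the gene and at no end in 3 members, Hk1, Ldha and Car9, beside 5.75% of all genes. Succinyllysine did so at Vegfa alone, beside 4.71%, and H3K27me3 at none, beside 6.49%. Annotated starts were known for 33 of the 36 genes and for 17492 of all genes; Bnip3l, Ndrg1 and Bhlhe40 were not placed by start. Within 1000 bp of a start, H3K4me3 was listed at 30 of 33 members (56.8% of all genes), succinyllysine at 3 of 33 (5.17%) and H3K27me3 at 0 of 33 (10.9%). The 3 members without H3K4me3 at a start were Aldoc, Car9 and Selenbp1. Hk1 and Ldha, unmarked at their outer ends, had it at a start inside the gene. Car9 was the member nearest the limit, with an H3K4me3 region 1075 bp from its start.

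Of the 15 enzyme genes, 14 had H3K4me3 at an end, with the widest region per gene from 2500 to 9400 bp. Hk1 encodes a hexokinase, which phosphorylates glucose, and has 2 annotated starts. Its first start lay 37308 bp from the nearest H3K4me3 region, and its second start lay in a 5000 bp region (chromosome 10, 62337601 to 62342600). The first start was also the member start closest to Polycomb chromatin, with an 800 bp H3K27me3 region 3693 bp away. That region lay outside Hk1, inside the nearby gene Hkdc1 and within 1000 bp of its end. Hk2, the second hexokinase, had a 4300 bp H3K4me3 region over its start, and Gpi1, the isomerase of glucose 6-phosphate, one of 3200 bp.

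The 3 phosphofructokinase genes encode the subunits of the enzyme that commits sugar to glycolysis. Pfkl and Pfkp each had a 3500 bp H3K4me3 region over the start. Pfkm had 4400 bp at its first start, where the region also reached the end of Senp1, and a separate 3300 bp region inside the gene that held 2 further starts. The last of its 4 starts lay in no region, 860 bp from that inner one.

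Aldolase splits the 6-carbon sugar, and its 2 genes in the set differed. Aldoa had a 1400 bp succinyllysine region (chromosome 7, 126799501 to 126800900), of which 1300 bp lay in H3K4me3. This region held the first start and ended 247 bp short of the second. At Aldoa 2 H3K4me3 regions of 1400 and 3500 bp met without a gap, the narrower over the first start and the wider over the other 2. The first start had a promoter with 0 CpG dinucleotides in 300 bases, and the second had 24. Aldoc had neither succinyllysine nor H3K4me3 at its starts: the 2500 bp H3K4me3 region that marked it lay at its far end, 3403 bp from the nearer start, and at the end of the neighbouring gene Pigs.

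The enzymes of the lower path all had H3K4me3 within 1000 bp of the start. Tpi1, which interconverts the 3-carbon products, was covered over its whole length of 3573 bp by 2 abutting regions of 3600 and 3500 bp that also touched the ends of Spsb2 and Usp5. Gapdh, which reduces NAD in the first energy-yielding step, was 90.3% covered by abutting regions of 3400 and 1700 bp, whose boundary lay 73 bp from the start. Pgk1, the first ATP-forming kinase, had 3700 bp over its start and 900 bp just upstream. Pgam1, a mutase, had regions of 600 and 3700 bp, and its start lay in the 100 bp gap between them, 30 bp from the wider region. Eno1 and Eno2 encode enolases, the second known mainly from neurons. Eno1 had 4600 bp of H3K4me3 over its 3 starts, and its nearest succinyllysine region lay 172308 bp from the first.

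Eno2 was the member with the widest succinyllysine region. A region of 2200 bp (chromosome 6, 124769601 to 124771800) reached from 2127 bp upstream of the start to 72 bp downstream of it, and at its other end it came within 1000 bp of the end of Lrrc23. It shared 700 bp with the 2800 bp H3K4me3 region, which reached 2172 bp into the gene. A second succinyllysine region of 1100 bp lay 653 bp beyond the far end of Eno2 and shared 700 bp with another H3K4me3 region. Among all genes with succinyllysine at an end, 15.8% had a wider region than the 2200 bp of Eno2, 33.6% a wider one than the 1400 bp of Aldoa and 54.9% a wider one than the 1000 bp of Ankrd37.

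Pkm, which encodes pyruvate kinase, the last enzyme of the path, had a 9400 bp H3K4me3 region (chromosome 9, 59653201 to 59662600). This was the widest of the set, and 1.23% of all marked genes had a wider one. Both annotated starts lay in it. No succinyllysine was listed at the gene, and the nearest region, 2400 bp wide, lay 9929 bp beyond its far end, inside Gramd2.

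**Figure D2:**
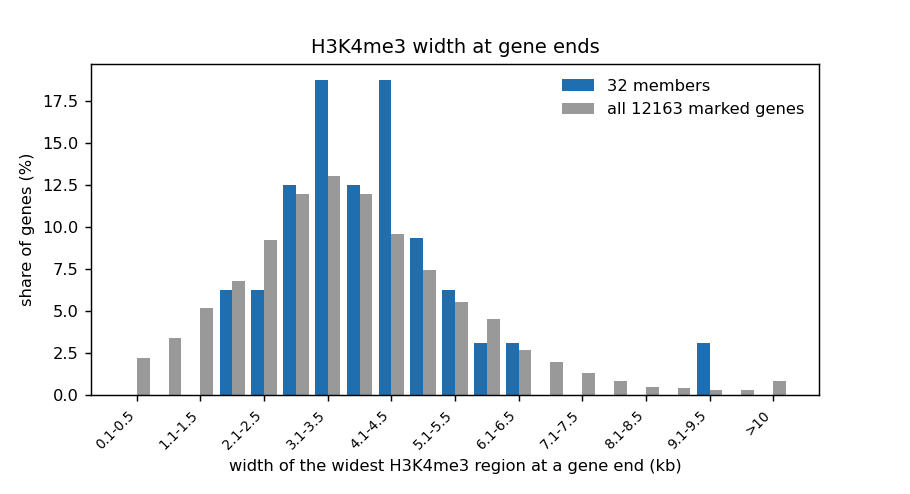
Share of genes (y axis, %) by the width of their widest H3K4me3 region at a gene end (x axis, kb, in steps of 500 bp, the last step holding all widths over 10 kb), for the 32 marked members and all 12163 marked protein-coding genes. The 2 distributions overlap, no marked member has a widest region under 1600 bp, and 1 member, Pkm, lies beyond 9000 bp.

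The 5 genes for lactate and transport all had H3K4me3 at a start and none had succinyllysine there. Ldha, which encodes the subunit of lactate dehydrogenase that predominates in muscle, had 3600 bp inside the gene as annotated, over both of its starts (chromosome 7, 46844701 to 46848300). Ldhb, the heart-type subunit, had 1600 bp, and 87.9% of all marked genes had a wider region. Slc2a1, the glucose transporter GLUT1, had 4200 bp and Slc16a1, the lactate transporter MCT1, had 5300 bp. Slc16a3, the lactate exporter MCT4, had 1600 bp over its start and abutted a further 1000 bp downstream.

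Of the 16 hypoxia-response genes, 14 had H3K4me3 at an end, with the widest region per gene from 2100 to 6100 bp. Vegfa, the angiogenic growth factor, had 5700 bp over its first start and none within 1000 bp of the second. A 1700 bp succinyllysine region (chromosome 17, 46029101 to 46030800) lay wholly within that H3K4me3 region, beginning 1577 bp downstream of the first start. Vegfa was the only member with succinyllysine inside the gene alone. Adm, the vasodilator peptide adrenomedullin, was covered over its whole length by 4000 bp of H3K4me3, and Ddit4, an inhibitor of mTORC1 signalling, by 4400 bp.

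Ankrd37, which encodes an ankyrin repeat protein, was the only gene of this group with succinyllysine at an end. Its 1000 bp region (chromosome 8, 46000001 to 46001000) lay entirely inside a 2700 bp H3K4me3 region, on the upstream side, and stopped 151 bp short of the start. The 3 members with succinyllysine at an end thus had it over the start (Eno2 and Aldoa) or upstream (Ankrd37). Over all 853 genes with succinyllysine within 1000 bp of the first start, the start lay in the region in 27.7%, the region lay upstream alone in 43.0% and downstream alone in 23.6%.

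Pdk1, the kinase that turns off pyruvate dehydrogenase, had 2600 bp over its first start. Bnip3 and Bnip3l, receptors for mitophagy, had 5000 bp and 2100 bp, the second abutting a further 800 bp. Higd1a, a mitochondrial inner membrane protein, had 4800 bp. P4ha1 and P4ha2, which encode catalytic subunits of collagen prolyl 4-hydroxylase, had 5400 bp and 3300 bp, and Ero1a, an oxidase of the endoplasmic reticulum, had 4200 bp.

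Bhlhe40, a repressor with a basic helix-loop-helix domain, had abutting regions of 6100 and 2600 bp. The wider covered 94.8% of the gene and the narrower lay outside it. A 1200 bp succinyllysine region lay inside the narrower of them, 1229 bp from the gene and so just outside the limit. Mxi1, a partner of Max, had 4500 bp at its first start and a separate 2200 bp over its other 2 starts. Ndrg1, a stress-response gene, had 3000 bp at an end. Car9, a carbonic anhydrase of the cell surface, had 600 bp inside the gene, near the end of Arhgef39. Selenbp1, a methanethiol oxidase, had no region of any list, and its nearest H3K4me3 region lay 19518 bp from the start. Selenbp1 has a close copy, Selenbp2, and Gapdh and other glycolysis genes have processed copies. The sources used here do not say how reads with several positions were treated, and their part in these regions was not tested.

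Over the 32 marked members the widest H3K4me3 region at an end was 1600, 3700 and 9400 bp wide at the lowest, median and highest. The median over the 12163 marked genes was 3500 bp. The middle 50% of members ran from 3150 to 4525 bp, and that of all marked genes from 2500 to 4600 bp. The medians by role were 3550 bp for enzymes, 2900 bp for the 4 marked lactate and transport genes and 4300 bp for hypoxia-response genes. The range of each role overlapped with those of the other 2.

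The H3K4me3 regions leaned into the genes. A region held the first start in 28 members and reached a median of 845 bp upstream and 2853.5 bp downstream. Over the 9263 genes with such a region the medians were 891 bp upstream and 2471 bp downstream. The downstream reach was the longer in 26 of 28 members (92.9%) and in 84.5% of all such genes, and the exceptions were Gapdh and Pfkm. At Gapdh the region over the start ended 72 bp downstream, where the abutting 3400 bp region began. Pkm reached farthest in both directions, with 3375 bp upstream and 6024 bp downstream, followed downstream by Vegfa with 5076 bp.

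**Figure D3:**
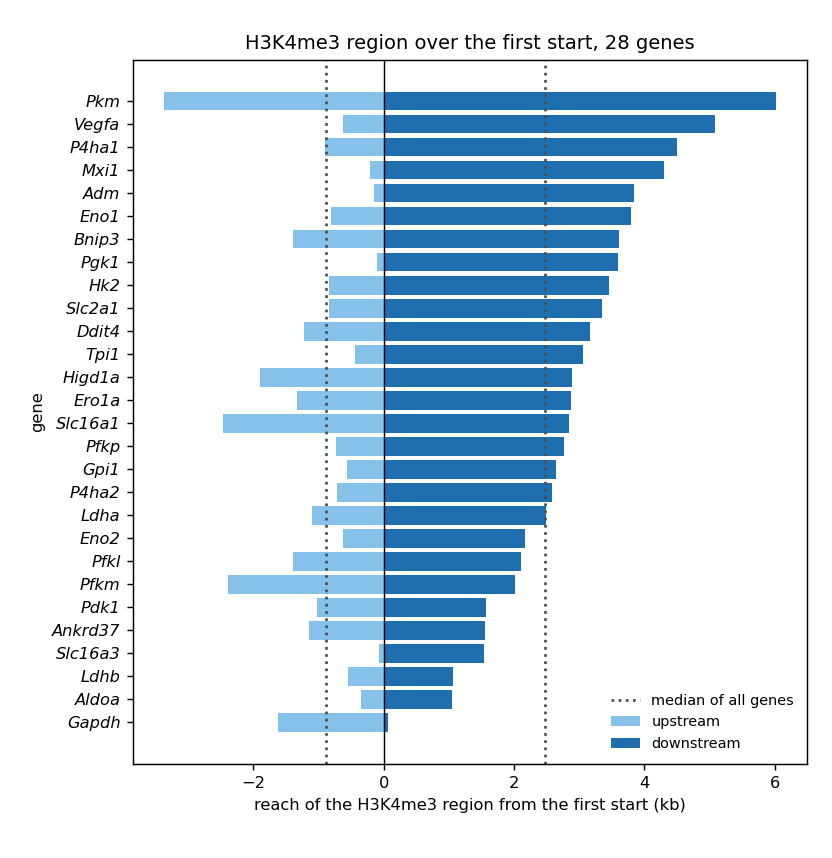
Reach of the H3K4me3 region upstream (left, light) and downstream (right, dark) of the first annotated start in kb, for the 28 members whose first start lies in a region. Dotted lines give the medians of all genes with such a region, 891 bp upstream and 2471 bp downstream. Downstream bars are the longer in 26 genes, and Gapdh and Pfkm are the exceptions.

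Along the 33 first starts, the share covered by H3K4me3 was 84.8% at the start, 87.9% at 500 to 1500 bp downstream and 48.5% at 3000 bp downstream. Over all genes these shares were 53.0% at the start, 53.3% at 500 bp and 19.5% at 3000 bp. Upstream at 2000 bp, 9.09% of members and 13.0% of all genes were covered. For genes chosen for having H3K4me3 within 1000 bp of the first start, as 29 of the 33 members had, the shares were 95.1% at the start, 95.7% at 500 bp, 34.0% at 3000 bp and 22.6% at 2000 bp upstream. Succinyllysine covered 2 of 33 member starts, against 1.35% of all starts and 2.13% of those with H3K4me3 within 1000 bp. Over all genes succinyllysine was lower at the start than on either side, with 2.86% covered at 500 bp upstream and 2.01% at 600 bp downstream.

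**Figure D4:**
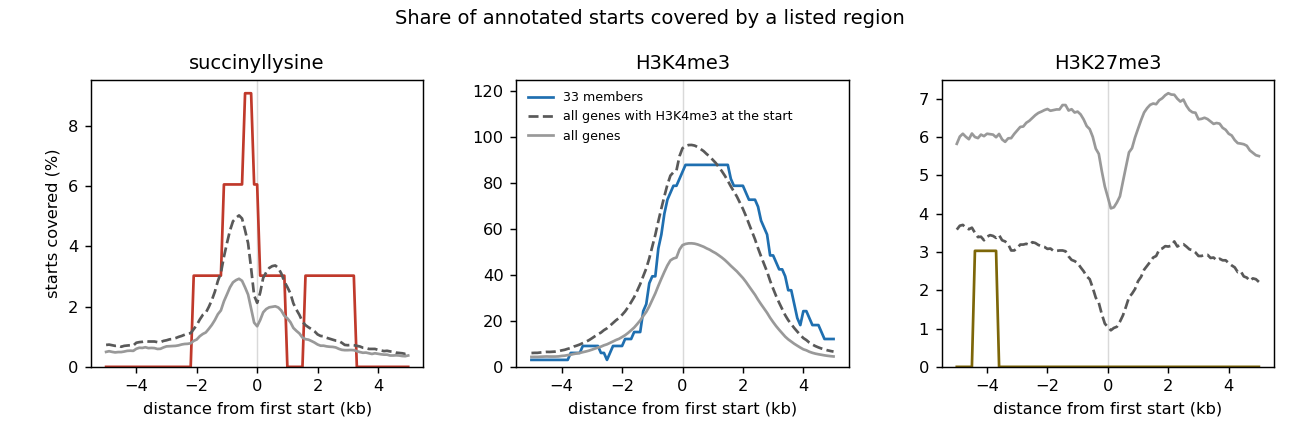
Share of first annotated starts covered by a listed region (y axis, %, with its own scale per panel) at each distance from the start (x axis, kb, downstream to the right), for the 33 members (coloured), genes with H3K4me3 within 1000 bp of the start (dashed) and all genes (grey). H3K4me3 covers 28 of 33 member starts; the coloured steps come from 4 genes for succinyllysine and from 1 gene for H3K27me3.

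Outside the 1000 bp windows, succinyllysine lay near a few more members. Within 10000 bp of the first start it was listed for 6 of 33 members (18.2%) and 9.59% of all genes. The 6 were Eno2, Aldoa, Ankrd37, Vegfa, Tpi1 and Ldha. This share was not counted for genes with H3K4me3 within 1000 bp of the first start, as 29 of the 33 members had. At 500 bp upstream of the start, succinyllysine covered 4.93% of such genes and 2.86% of all genes. Beyond the far end of Tpi1 lay regions of 2500 and 1300 bp, at distances of 1986 and 4786 bp from the gene, the nearer within 1000 bp of an end of Spsb2. Upstream of Ldha lay regions of 900 and 1200 bp, 2174 and 3274 bp from the gene and each sharing 500 bp with small H3K4me3 regions. The median distance from the first start to the nearest succinyllysine region was 88828 bp for members and 152603 bp for all genes, with a range over members of 0 to 1210824 bp (Pdk1). For H3K27me3, 1 of 33 members, Hk1, had a region within 10000 bp, the one inside Hkdc1, against 23.6% of all genes. Neither this share nor the median distances were counted for genes with H3K4me3 at the start. The median distance to H3K27me3 was 89337 bp for members and 60627.5 bp for all genes.

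**Figure D5:**
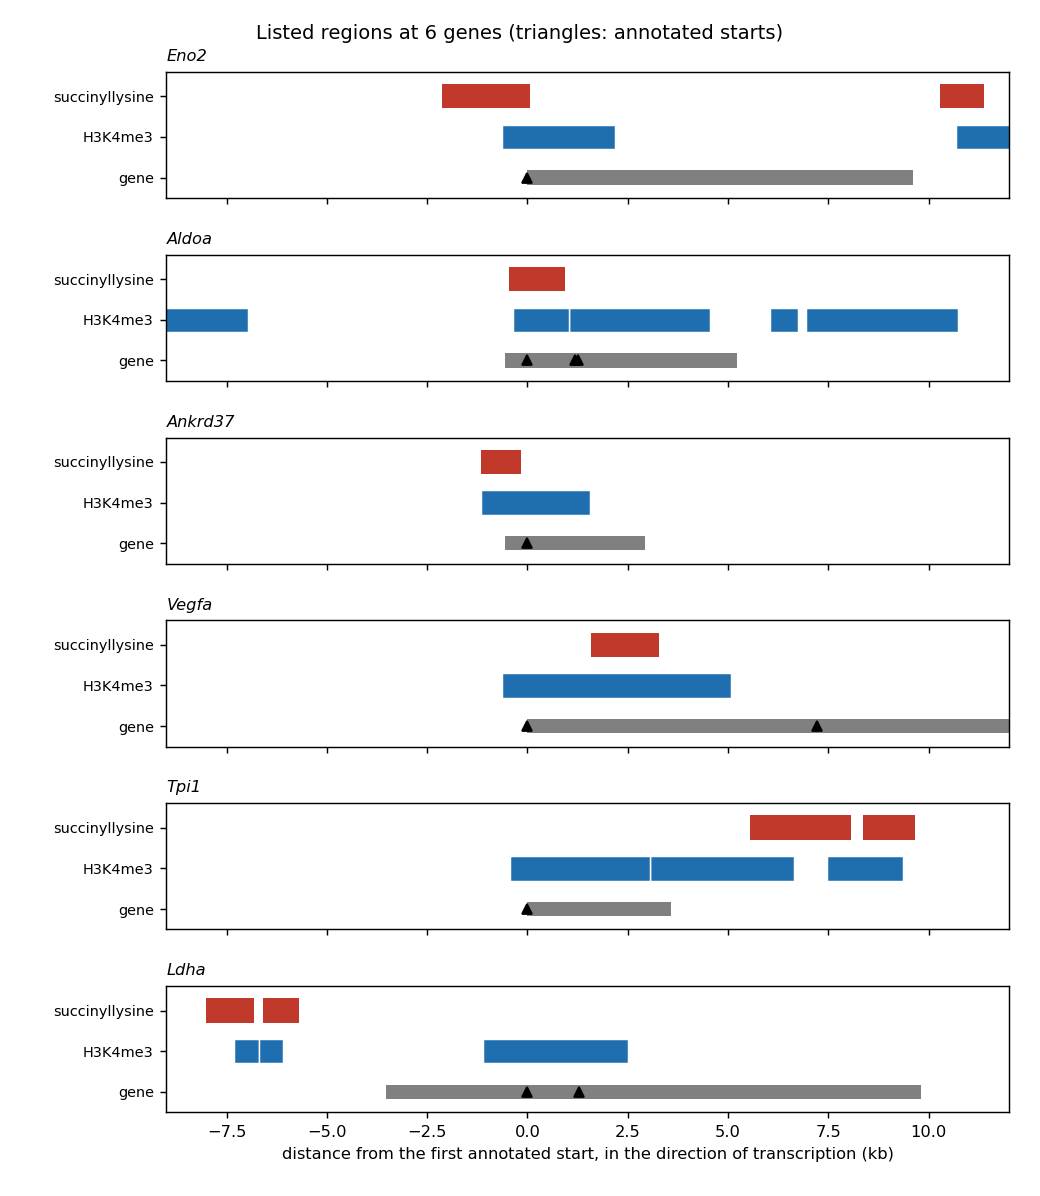
Succinyllysine (top row) and H3K4me3 (middle row) regions and the annotated gene (bottom row, grey) for the 6 members with succinyllysine within 10000 bp of the first start, by distance from that start in the direction of transcription (kb); triangles mark annotated starts, and bars are clipped at the panel edge. Succinyllysine overlaps the start at Eno2 and Aldoa, lies just upstream at Ankrd37, inside the H3K4me3 region at Vegfa, and outside the gene at Tpi1 and Ldha.

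The HIF core was searched in the promoters of the 33 first starts, on both strands. ACGTG was present in 19 of 33 (57.6%), against 20.7% of all 17492 promoters and 26.5% of the 9738 with H3K4me3 within 1000 bp. GCGTG was present in 20 of 33 (60.6%), against 38.5% and 54.5%. Either form was present in 25 of 33 (75.8%), against 49.2% and 66.2%. The most cores in 1 member promoter were the 7 at the first Ldha start. The E-box CACGTG holds ACGTG on both strands and so counts as 2 cores. It was present in 4 of 33 (12.1%), at Ldha, Slc16a1, Bnip3 and Pfkm, against 7.91% of all promoters and 10.5% of those with H3K4me3. Targets of HIF are often recognised by this core, so that the share is not independent of how such genes are known, and a match is a run of letters, not a shown binding site.

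By role, ACGTG stood in 6 of 15 enzyme promoters, 4 of 5 lactate and transport promoters and 9 of 13 hypoxia-response promoters. Neither form stood in the promoters of Aldoa, Eno2, Gpi1, Hk1, Pkm, Tpi1, Mxi1 and Vegfa at their first starts. At Hk1, Aldoa, Pkm, Mxi1 and Vegfa a later start did have a core. Of the other motifs searched on both strands, GGGCGG, the GC box, stood in 24 of 33 (72.7%) against 46.3% of all promoters and 68.9% of those with H3K4me3. CCAAT stood in 14 (42.4%), against 39.2% of each. TATAAA stood in 4 (12.1%), against 13.3% of all promoters and 6.53% of those with H3K4me3. TGANTCA, the AP-1 site, stood in 1, Car9 (3.03%), against 7.03% of all promoters and 4.00% of those with H3K4me3. The member promoters had a median of 21 CpG dinucleotides, against 13 in all promoters and 22 in those with H3K4me3.

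Other genes of these pathways were read from lists chosen with earlier results known. A list of tissue-restricted isoforms of glycolysis and glucose transport held 15 genes. Of these, 5 had H3K4me3 at an end, 1 had succinyllysine and 1 had H3K27me3. Over all genes these shares were 55.6%, 5.42% and 13.6%, so that 1 of 15 with succinyllysine is near the background. Within 1000 bp of a start, H3K4me3 stood at 2 of the 11 with a known start, beside 56.8% of all genes. The 5 were Eno3, the muscle enolase, Gapdhs, Pfkfb1, Slc2a4 and Slc16a7. Eno3 had 10600 bp of H3K4me3 and was the one with succinyllysine, in a region of 1100 bp. Whether neighbouring genes share these regions was looked up for the members only, not for the genes of these lists. Hk3, a hexokinase of blood cells, had 800 bp of H3K27me3. Pklr, Pgk2, Pgam2, Ldhc, Ldhal6b, Slc2a2 and Slc16a8 had no region of any list at their ends.

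Of 32 regulators of glycolysis and side paths, 28 had H3K4me3, 1 succinyllysine (Pdha1, a pyruvate dehydrogenase subunit, 400 bp) and 1 H3K27me3 (Hkdc1, 800 bp). Of 7 genes of gluconeogenesis, 3 had H3K4me3, 1 had succinyllysine (Pck2, the mitochondrial PEP carboxykinase, 2200 bp) and 2 had H3K27me3, namely Pck1 with 1200 bp and Fbp1 with 1100 bp. Of 45 other hypoxia-response genes, 35 (77.8%) had H3K4me3, 3 (6.67%) succinyllysine and 6 (13.3%) H3K27me3. Over all genes these shares were 55.6%, 5.42% and 13.6%, so that those for succinyllysine and H3K27me3 are near the background. Those with succinyllysine included Lox, a collagen crosslinker (1900 bp), and Anln, an actin-binding protein (1400 bp). The 6 with H3K27me3 were Epo, Nos2, Hif3a, Cxcr4, Flt1 and Rora, with 500 to 1900 bp, and Cxcr4, Flt1 and Rora also had H3K4me3. Pfkfb3 and Pfkfb4 count under both of these lists. Of the 6 genes for HIF subunits and oxygen sensing, all had H3K4me3, none had succinyllysine, and Epas1 had H3K27me3.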

How the data were processed

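ChIP-seq regions were analysed from 16 samples of 2 cell lines. The submitters' processing notes name Bowtie2 2.2.3 and mm10. Peak caller, threshold, input use and pooling of samples are not stated in the sources used here. The authors deposited 1 list per antibody, with region starts and ends and no score. Positions were read as 1-based and inclusive. Gene ends came from a RefSeq table of GRCm38.p6, with mm10 coordinates, and starts and promoters from the RefSeq promoter table of that build (250 bases before to 50 after a start). A mark was assigned on an overlap of 1 bp or more with a window of 1000 bp on each side of either gene end, or of any annotated start. The first start is the most upstream one. Motifs were matched exactly. Forward TATAAA lay 20 to 40 bases before the start 284 times on plus-strand genes and 254 times on minus-strand genes, against 63 and 73 for its reverse complement, so sequences were read on the gene's strand. The members and lists were chosen with earlier results of these data known. Named genes are the members, pathway genes with succinyllysine, and neighbours sharing a region. The isoforms and H3K27me3-marked genes named beyond these were chosen after their values were seen. Members do not replicate a condition, and no test was made. Some genes of the pathway lists are not reported here by name. The input samples were not analysed. Overlap code was tested on simulated data. Python 3.11.15, pandas 2.3.3 and numpy 2.4.6 were used.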

Additional observations from a re-analysis of the deposited data

How the results depend on the processing

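Windows of 500 and 2500 bp, whole genes with 1000 bp on each side, starts in place of ends, an overlap of at least 100 bp, only regions above their list's median width, merging within 1000 bp and leaving out regions that touch both other lists were tried. The use of the first start alone and the joining of abutting regions were added after the data were seen. The number of members with succinyllysine moved to 7 (6.96% of all genes) with windows of 2500 bp. These windows by construction took in Vegfa, Ldha, Tpi1 and Bhlhe40. The number was 4 with whole genes, beside 10.1% of all genes, and 3 otherwise, beside 4.67% to 5.42%. H3K4me3 ranged from 31 of 36 members (500 bp, beside 54% of all genes) to 35 of 36 (whole gene, 61.3%). It was 30 of 33 at any start (56.8%) and 29 of 33 at the first start (55.7%). H3K27me3 was 0 throughout, beside 10% to 20.1% of all genes. The median H3K4me3 width of members ranged from 3700 to 4400 bp and that of all marked genes from 3500 to 3900 bp. No paired analysis was possible because each list covers both lines and has no columns per sample. Without read depth, a gene outside a list may have signal under the authors' unknown threshold.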

Other observations

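Some H3K4me3 regions met their neighbour without a gap, as at Aldoa, Tpi1, Gapdh, Pfkl, Slc16a3, Bnip3l and Bhlhe40. These were 7 of the 35 members with H3K4me3 in the gene or within 1000 bp, beside 11.9% of all 13421 such genes. The H3K4me3 list held 1911 such pairs, the succinyllysine list 417 and the H3K27me3 list 12789. The sources used here do not say what set these borders. With abutting regions joined, the median width was 4250 bp for members and 3700 bp for all marked genes.

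The share of promoters with ACGTG was also read by CpG content. With 0 to 9 CpG dinucleotides, 4 of 7 members had ACGTG, against 11.5% of all genes. With 10 to 19 it was 2 of 8, against 25.1%, with 20 to 29 it was 6 of 11, against 28.6%, and with 30 or more it was 7 of 7, against 29.7%. The 7 were Ero1a, Higd1a, Ldha, P4ha1, Pgam1, Slc16a1 and Slc16a3.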
